A study of Homo sapiens with 6 samples.

Results

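The calcium handling machinery of A549 cells, a human lung adenocarcinoma line, was described from 48 genes picked by symbol out of the 58676 genes listed. The rule that selects them is a list of gene symbols and uses no measured value. The list itself was chosen with earlier results of these data known. The genes cover release channels of the internal store (5 genes), entry channels and their sensors (8), pumps and exchangers (10), mitochondrial uptake (5), calmodulin and its targets (14) and the S100 family (6). RNA sequencing was available for A549 MOCK, which carried an empty vector (n = 3), and A549 Rec, which carried the same kind of vector with the cDNA of human recoverin (n = 3). Both were kept in 2D culture, for 6 days according to the labels. By the study's methods the lines are stably transduced populations selected with puromycin, so both groups had gone through transduction and selection, and each group is 1 line. Values by library follow the replicate numbers 1 to 3 of the labels. Nothing in the labels says whether these were separate cultures, so p-values measure the spread between these libraries only. All values are TPM: the reads of a gene are divided by its length, and each library is then brought to a total of 1000000.

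Calcium is kept low in the cytosol by pumps that move it into the endoplasmic reticulum, into the Golgi apparatus or out of the cell. Signals open inositol trisphosphate receptors, which release the stored calcium, and the emptied store is sensed by STIM proteins, which open ORAI channels in the plasma membrane. Mitochondria take up part of each rise through the uniporter. EF-hand proteins, among them calmodulin and the S100 proteins, bind the calcium and pass the signal to kinases, to the phosphatase calcineurin and to other partners. Recoverin is itself an EF-hand calcium sensor, known from photoreceptors, and is found aberrantly in some tumours.

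Calmodulin, the most widely used of these sensors, is made from separate genes whose coding sequences differ while the protein is the same. The stretch below codes for the first calcium-binding loop (coding bases 61 to 96) and is shown because it is what lets reads of the genes be told apart. Capitals mark the 7 of 36 bases at which the genes differ, and both sequences are read from GRCh38 with the GENCODE v44 annotation, 5′ to 3′ on the coding strand. CALM2 lies at chr2:47162601-47162636 on the minus strand and CALM3 at chr19:46608223-46608258 on the plus strand.
CALM2: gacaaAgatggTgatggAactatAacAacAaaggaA
CALM3: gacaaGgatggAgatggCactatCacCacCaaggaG
Over the whole coding sequence of 447 bases, 82 bases differed (81.7% identical) and 100% of the codons translated alike. The longest run of identical bases was 17, and any stretch of 150 bases, the read length, held at least 26 differing bases. A read from within the coding part therefore carried bases that tell the genes apart.

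The libraries held 15183490 to 18572167 reads, recovered from the TPM values (median 15463896). Of the TPM total, 13.6, 15.7 and 34.5% (A549 MOCK replicates 1 to 3) and 17.3, 13.3 and 26.9% (A549 Rec) fell on mitochondrially encoded genes, so replicate 3 stood apart in both groups. Since TPM are shares of a fixed total, results are also given after leaving those genes out and rescaling each library to the same total (rescaled TPM). RCVRN, the recoverin gene, was listed at 0 in the A549 MOCK libraries and at 322 to 339 TPM in A549 Rec, which matches the labels. Of 5 epithelial markers, KRT8, KRT18, EPCAM and CDH1 reached a mean of 1 TPM and KRT19 did not. The list of 5 summed to 4193 to 5886 TPM in A549 MOCK and 5497 to 6343 TPM in A549 Rec. Of 8 markers of alveolar type II cells, ABCA3 and NAPSA passed 1 TPM and SFTPA1 was at 0. The endothelial list had 0 of 3 above 1 TPM, the fibroblast list 1 of 4 (COL1A1, with COL1A2 at 0) and the leukocyte list 1 of 4 (CD14, with CD3E at 0).

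By mean TPM over the 6 libraries, 7 of the 48 genes reached 100, 23 lay between 10 and 100, 9 lay between 1 and 10, and 9 were under 1. The top of the list was held by the S100 genes, calmodulin and the pump of the endoplasmic reticulum, and the bottom by the ryanodine receptors and by tissue-restricted pumps and channels. A gene entered the test if it reached 1 TPM in at least 3 libraries, which 39 of the 48 did. The 9 that did not were RYR1, RYR2, TRPV6, ATP2B2, ATP2C2, SLC8A1, SMDT1, CALML4 and NFATC2. In bulk samples, fewer cells that express a gene and less RNA per cell cannot be told apart. Of these 9 genes, TRPV6 and SMDT1 had 3 reads or fewer in every library.

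**Figure D1:**
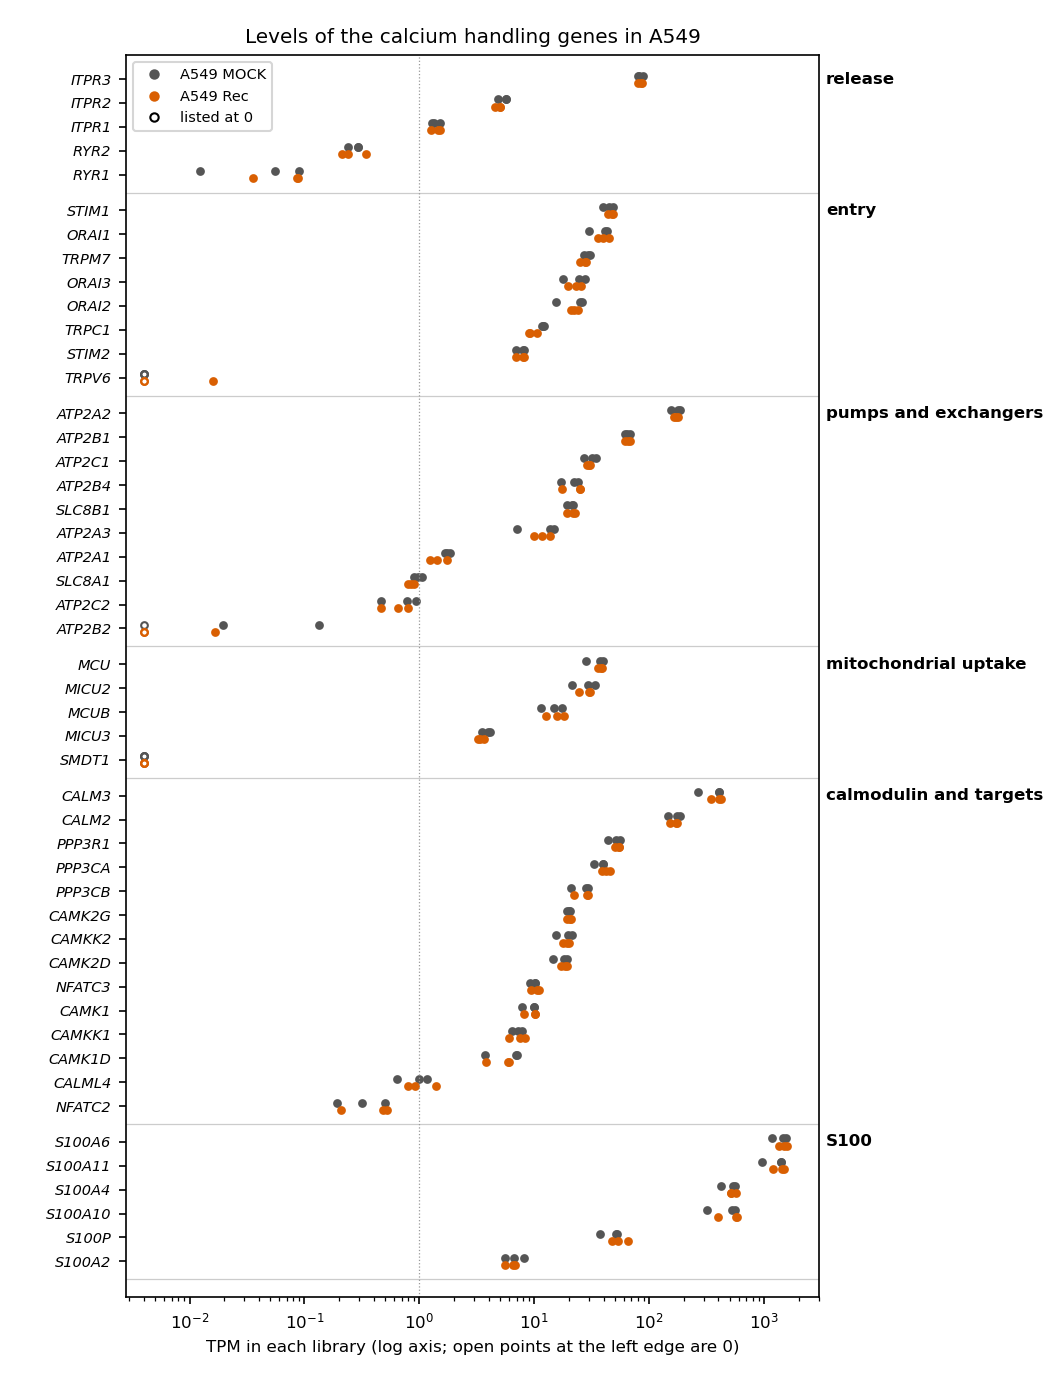
TPM of the 48 calcium handling genes in each library, on a log axis, grouped by role and ordered by mean level; grey points are the 3 A549 MOCK libraries, orange points the 3 A549 Rec libraries, and open points at the left edge are listed at 0. S100A6 and S100A11 lie at 958 TPM or more in every library, and the points of the groups overlap for every gene except TRPC1.

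Of the release channels of the store, nearly all transcripts came from ITPR3, the type 3 inositol trisphosphate receptor (chromosome 6, 33620365 to 33696574, plus strand, GRCh38). ITPR3 stood at 81.1, 88.1 and 79.9 TPM in MOCK and 80.4, 86.2 and 84.9 TPM in Rec. As TPM, the libraries of both groups lay within the same narrow range. Rescaled, ITPR3 was at 93.9, 104.4 and 122.0 in MOCK and 97.3, 99.5 and 116.2 in Rec, highest in replicate 3 of each group. ITPR2 stood at 5.70, 5.62 and 4.79 TPM in MOCK and 5.06, 4.98 and 4.57 TPM in Rec. ITPR1 stood at 1.35, 1.53 and 1.29 TPM in MOCK and 1.26, 1.45 and 1.51 TPM in Rec. Both were far below ITPR3 in every library. ITPR3 made up 92.5% ± 0.457 (SD, n = 3) of the summed TPM of the 3 receptors in the MOCK group and 93.0% ± 0.304 in the Rec group, with 92.0 to 93.3% over the 6 libraries. Counted per length of the canonical transcript, the share was 89.6 to 90.6%. The ryanodine receptors, the release channels of muscle and brain, were hardly seen, with RYR2 at 0.214 to 0.342 TPM (19 to 32 reads) and RYR1 at 0.0124 to 0.0890 TPM (1 to 8 reads).

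Among the proteins of store-operated entry, STIM1, the calcium sensor of the endoplasmic reticulum, had the higher level of the STIM pair, with 47.9, 44.5 and 39.8 TPM in MOCK and 43.6, 48.6 and 47.2 TPM in Rec. STIM2, which senses smaller losses from the store, stood at 8.02, 6.96 and 8.07 TPM in MOCK and 8.00, 6.91 and 8.08 TPM in Rec. The groups overlapped for both, and STIM1 held 85.1% ± 1.74 (SD, n = 3) of the pair in the MOCK group and 85.8% ± 1.56 in the Rec group. All 3 ORAI genes, which code for the pore, were expressed, with ORAI1 the highest. ORAI1 stood at 42.7, 41.3 and 29.6 TPM in MOCK and 39.7, 44.6 and 36.2 TPM in Rec. ORAI3 stood at 24.5, 27.8 and 17.6 TPM in MOCK and 23.2, 25.3 and 19.8 TPM in Rec. ORAI2 stood at 25.8, 25.0 and 15.4 TPM in MOCK and 21.98, 23.9 and 21.0 TPM in Rec. Each of the 3 had its lowest value of each group in replicate 3, and the groups overlapped. ORAI1 held 43.9 to 47.5% of the summed ORAI level, ORAI2 24.6 to 27.8% and ORAI3 25.7 to 29.6%. ORAI2 and ORAI3 overlapped with the length of all exons. With the canonical transcript ORAI3 held 23.7 to 27.4% and ORAI2 19.5 to 22.1%, so that ORAI3 was the higher gene in every library. ORAI3 also overlaps another annotated gene on its strand. Of the TRP channels, TRPM7, a cation channel fused to a kinase, stood at 25.1 to 30.8 TPM and TRPC1, a channel subunit linked to receptor- and store-operated entry, at 8.995 to 12.1 TPM. TRPV6, the calcium-selective channel of absorbing epithelia, had 1 read in 1 library and was at 0 in the others, where 3 reads was taken as the limit that a count of 0 allows.

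Among the pumps that refill the store, the highest level was that of ATP2A2, which codes for SERCA2, the housekeeping pump of the endoplasmic reticulum. ATP2A2 stood at 186, 179.7 and 153 TPM in MOCK and 170.3, 176 and 165 TPM in Rec, rank 691 among the genes listed. The groups overlapped, and the A549 Rec values lay between the lowest and the highest A549 MOCK value. ATP2A3 (SERCA3) stood at 14.7, 13.6 and 7.03 TPM in MOCK and 11.6, 13.6 and 9.86 TPM in Rec, and its lowest value in each group was in replicate 3. ATP2A1, the pump of fast skeletal muscle, stood at 1.241 to 1.86 TPM. ATP2A2 therefore made up 91.9 to 94.6% of the SERCA level in the 6 libraries.

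Of the calmodulin-activated PMCA pumps, which extrude calcium through the plasma membrane, ATP2B1 and ATP2B4 were expressed. ATP2B1 stood at 68.3, 64.6 and 61.0 TPM in MOCK and 65.0, 67.6 and 61.7 TPM in Rec. ATP2B4 stood at 24.0, 22.3 and 17.1 TPM in MOCK and 24.8, 25.1 and 17.3 TPM in Rec, with its lowest value of each group in replicate 3. ATP2B1 held 75.4% ± 2.30 (SD, n = 3) of the PMCA level in the MOCK group and 74.5% ± 3.19 in the Rec group, and its share was 78.1% in replicate 3 of both groups against 72.4 to 74.4% in the other libraries. ATP2B2, the PMCA of neurons and hair cells, had 7, 1 and 0 reads in the MOCK libraries and 0, 1 and 0 in the Rec libraries. ATP2C1, the SPCA1 pump of the Golgi apparatus, stood at 34.5, 31.9 and 26.8 TPM in MOCK and 30.0, 30.2 and 28.7 TPM in Rec. It made up 97.1 to 98.7% of the SPCA level, with ATP2C2, the SPCA of secretory epithelia, at 0.459 to 0.939 TPM. SLC8B1, the exchanger that lets calcium out of mitochondria, stood at 19.1 to 22.5 TPM, and SLC8A1, the sodium-calcium exchanger of heart muscle, at 0.796 to 1.049 TPM (92 to 129 reads).

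Mitochondrial uptake was represented by the uniporter pore MCU, with 39.6, 37.7 and 28.2 TPM in MOCK and 38.4, 39.1 and 36.1 TPM in Rec. The lowest value was A549 MOCK replicate 3 and the other libraries lay between 36.1 and 39.6 TPM. MCUB, a pore subunit that lowers uptake, stood at 17.3, 14.8 and 11.5 TPM in MOCK and 15.7, 17.9 and 12.6 TPM in Rec, so MCU held 68.5 to 74.2% of the pore level. Of the gatekeepers, MICU2 stood at 21.2 to 33.8 TPM and MICU3, best known from nerve tissue, at 3.22 to 4.14 TPM. SMDT1, which codes for EMRE, the small subunit that joins the gatekeepers to the pore, was listed at 0 in all 6 libraries. Its neighbour on chromosome 22, NDUFA6, which codes for a subunit of respiratory complex I, was also listed at 0 in all 6. Other genes nearby were low, with PHETA2 at up to 0.0817 TPM and TCF20 at 0.181 to 0.430 TPM. A listed 0 in this stretch (SMDT1 at 42079691 to 42084284) is a fact about the table, and its cause was not tested.

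CALM3 and CALM2 were the most abundant of the calmodulin group. CALM3 stood at 405, 408 and 268 TPM in MOCK and 403, 418 and 348 TPM in Rec. CALM2 stood at 183, 173 and 145 TPM in MOCK and 170.5, 173 and 152 TPM in Rec. Replicate 3 was the lowest library of each group for both genes, and the groups overlapped. Rescaled, CALM2 was highest in replicate 3 of each group, at 222 in MOCK and 208 in Rec. CALM3 remained lowest there, at 409 and 476. The order of CALM3 over CALM2 depended on the length used. The TPM rest on 6466 bases for CALM2, the length of all its annotated exons, while its canonical transcript has 1210 bases, whereas CALM3 has 3667 and 2184. With the exon length, CALM3 held 67.9% ± 2.79 (SD, n = 3) of the pair in the MOCK group and 70.2% ± 0.589 in the Rec group. With the canonical transcript it held 40.0% ± 3.03 and 42.5% ± 0.687, so that CALM2 was the higher gene in every library. CALM2 also overlaps another annotated gene on its strand. CALML4, a calmodulin-like gene, stood at 0.637 to 1.39 TPM.

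The kinases that calmodulin activates were expressed at moderate levels. Of the CaMKII genes in the list, CAMK2G stood at 19.9, 19.3 and 20.6 TPM in MOCK and 20.8, 20.5 and 19.4 TPM in Rec. CAMK2D stood at 18.0, 19.2 and 14.6 TPM in MOCK and 18.5, 19.1 and 17.0 TPM in Rec. CAMK2G held 50.2 to 58.5% of the pair. CAMKK2, the upstream kinase that also acts on AMPK, stood at 21.4, 19.7 and 15.5 TPM in MOCK and 19.2, 20.1 and 17.7 TPM in Rec. Its partner CAMKK1 stood at 7.76, 7.16 and 6.38 TPM in MOCK and 7.52, 8.30 and 6.03 TPM in Rec, so that CAMKK2 held 70.8 to 74.5% of the pair. Their substrate kinases CAMK1 and CAMK1D stood at 7.80 to 10.2 and 3.74 to 7.02 TPM. CAMK1D was lowest in replicate 3 of each group, at 3.74 and 3.77 TPM, against at least 5.94 TPM in the other libraries.

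Calcineurin, the calmodulin-dependent phosphatase, was represented in the list by its catalytic subunits PPP3CA and PPP3CB and by the calcium-binding regulatory subunit PPP3R1. PPP3CA stood at 39.3, 39.9 and 33.4 TPM in MOCK and 42.2, 45.1 and 38.8 TPM in Rec. PPP3CB stood at 29.2, 28.1 and 20.8 TPM in MOCK and 29.4, 28.9 and 21.9 TPM in Rec. The groups overlapped for both genes, and PPP3CA held 59.2% ± 2.17 (SD, n = 3) of the pair in the MOCK group and 61.3% ± 2.48 in the Rec group. PPP3R1 stood at 44.1 to 55.8 TPM. The NFAT transcription factors that calcineurin releases to the nucleus were represented in the list by NFATC3 and NFATC2. NFATC3 stood at 9.21 to 10.9 TPM and NFATC2 at 0.194 to 0.527 TPM (9 to 23 reads). Outside the list, PPP3CC stood at 7.32 to 10.2 TPM and NFATC1 at 2.95 to 4.99 TPM.

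The S100 genes code for small EF-hand dimers with many partners, and 4 of the 6 held the highest levels of the 48. S100A6 stood at 1564, 1469 and 1181 TPM in MOCK and 1494, 1595 and 1347 TPM in Rec, rank 54 of all genes listed. S100A11 stood at 1399.6, 1398 and 958 TPM in MOCK and 1479.6, 1436 and 1186 TPM in Rec, rank 61. Replicate 3 was the lowest library of each group for both genes. S100A4, known for its link to cell motility, stood at 420.3 to 569.7 TPM (rank 178) and S100A10, the partner of annexin A2, at 317 to 582 TPM (rank 195). S100P, often found in carcinomas, stood at 37.2 to 64.7 TPM and S100A2 at 5.57 to 8.07 TPM. S100A6 held 36.2 to 40.4% and S100A11 32.8 to 35.9% of the summed level, and with the canonical transcript lengths 43.8 to 48.2% and 21.1 to 23.4%. S100A4 overlaps S100A3 on the same strand, so its reads may have been split or dropped in counting. S100A6, S100A11, S100A4, S100A10 and S100A2 lie on chromosome 1 and S100P on chromosome 4.

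**Figure D2:**
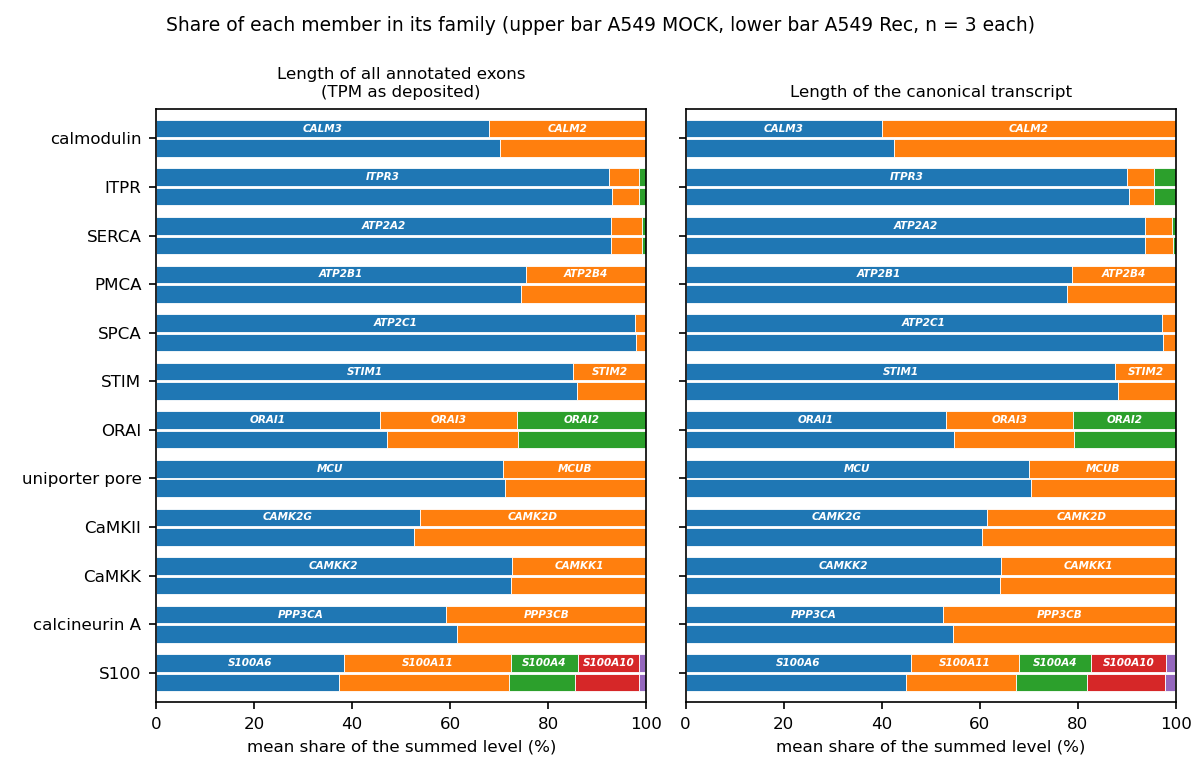
Mean share (%) of each gene in the summed level of its family, over the families the list holds, with the upper bar for A549 MOCK and the lower bar for A549 Rec (n = 3 each), from the TPM as deposited (left) and with the length of the canonical transcript in its place (right). The bars of the groups are nearly alike in every family, and the leading gene is the same on both sides except for calmodulin, where CALM2 leads on the right.

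The comparison of A549 Rec with A549 MOCK asks whether these genes differ when the cells carry a further calcium sensor. None of the 39 tested genes was called a DEG, that is a gene with a Benjamini-Hochberg adjusted p under 0.05 in limma and a fold change of at least 2. Of all 17408 genes tested 0.00574% were called, which is RCVRN alone. Without adjustment, 1 of the 39, TRPC1, had a p under 0.05, beside 2.06% of all genes tested. A count-based fit, voom in limma on the recovered reads, likewise called 0 of the 39 and gave TRPC1 alone an unadjusted p under 0.05 (1.71% of all genes). The smallest adjusted p of the 39 was 0.9997 in limma. The study itself, which used DESeq2 on read counts with similar limits, reported more DEGs, both higher and lower in A549 Rec. That RCVRN alone was called holds for the fits used here, and the reason for the gap to the study's count was not tested.

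How large a difference these libraries leave room for is given by the confidence intervals. The 95% interval of the log2 difference (Rec minus MOCK, on log2(TPM + 1)) lay inside a 2-fold change for 39 of 39 genes, beside 88.5% of all genes tested. The lowest bound was -0.73, for CAMK1D, and the highest 0.79, for S100A10. An interval reached a median of 0.34 to either side of the difference for these genes and of 0.40 for all genes tested. The differences themselves ran from -0.29 for TRPC1 to 0.24 for S100P, with 27 above 0 and 12 below 0. Their median was 0.029, beside 0.019 over all genes tested. After rescaling without the mitochondrially encoded genes, 18 were above 0 and 21 below 0, with a median of -0.014 beside -0.022 over all genes, so the sign of a small difference depended on the scaling.

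**Figure D3:**
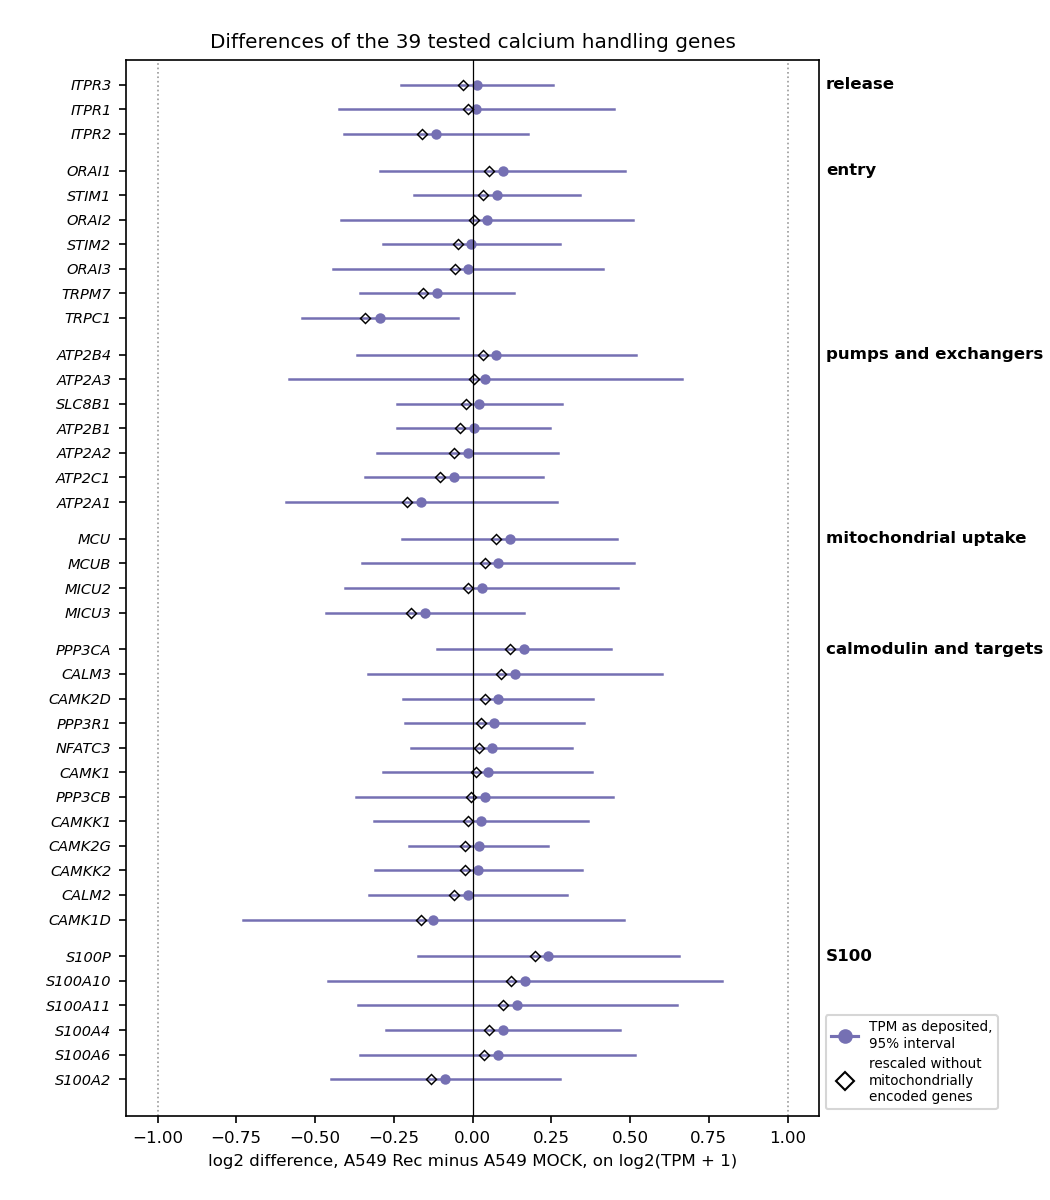
Log2 difference (A549 Rec minus A549 MOCK, on log2(TPM + 1), n = 3 each) of the 39 tested genes by role, with the 95% interval from limma (points and lines) and the difference after rescaling without mitochondrially encoded genes (open diamonds); dotted lines mark a 2-fold change. All 39 intervals lie between the dotted lines, and the interval of TRPC1 is the one that leaves out 0.

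By role, the median log2 difference was 0.012 for release (3 genes tested), -0.0039 for entry (7), 0.0034 for pumps and exchangers (7), 0.055 for mitochondrial uptake (4), 0.043 for calmodulin and its targets (12) and 0.12 for the S100 genes (6). After rescaling the medians were -0.030, -0.041 and -0.045 for release, pumps and entry, and 0.013, 0.0025 and 0.075 for mitochondrial uptake, calmodulin and S100, so those of release and of the pumps changed sign. The leading genes of each system stood close to 0. ITPR3 had a log2 difference of 0.015 ± 0.10 (SE), with an interval from -0.23 to 0.25. ATP2A2 had -0.015 ± 0.12 (SE), from -0.30 to 0.27. ATP2B1 had 0.0034 ± 0.10 (SE), from -0.24 to 0.25. The signs of ITPR3 and ATP2B1 turned negative after rescaling. STIM1 had 0.078 ± 0.11 (SE), ORAI1 0.10 ± 0.16 (SE), MCU 0.12 ± 0.14 (SE) and CALM3 0.13 ± 0.20 (SE), each with an interval that holds 0. Without A549 MOCK replicate 3, STIM1 was at 0.0080. ATP2C1 had -0.058 ± 0.12 (SE), CAMK2G 0.020 ± 0.094 (SE), CAMKK2 0.018 ± 0.14 (SE) and S100A6 0.080 ± 0.19 (SE).

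TRPC1 (ENSG00000144935, chromosome 3, 142724074 to 142807888, plus strand) was the 1 gene of the 39 whose groups did not overlap. It stood at 11.7, 12.00 and 12.1 TPM in MOCK and 10.5, 9.26 and 8.995 TPM in Rec, so every A549 Rec library lay below every A549 MOCK library. Of all genes tested, 2.69% were separated in this direction and 2.47% in the other, in which 0 of the 39 were. The recovered reads were 282, 282 and 325 for A549 MOCK against 251, 258 and 226 for A549 Rec. The log2 difference was -0.29 ± 0.11 (SE), with an interval from -0.54 to -0.046, an unadjusted p of 0.0264 and an adjusted p of 0.9997 in limma. An exact two-sided permutation test gave p = 0.1, the smallest that 3 against 3 allows. After rescaling, the values were 13.6, 14.2 and 18.6 in MOCK and 12.7, 10.7 and 12.3 in Rec, still apart, with a log2 difference of -0.34 and an unadjusted p of 0.0501 in limma. When each library was left out in turn, the difference lay between -0.36 and -0.25 as TPM and between -0.42 and -0.21 after rescaling, the last without A549 MOCK replicate 3. Its unadjusted p was above 0.05 in limma without A549 MOCK replicate 1, A549 MOCK replicate 2, A549 Rec replicate 2 or A549 Rec replicate 3, in each of which 0 genes of the 39 were under 0.05. A small RNA pseudogene, RNU7-47P, overlaps TRPC1 on its strand.

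S100P lay at the other end, and it is described after its values were seen, as are S100A10, TRPM7 and ITPR2. It stood at 52.0, 50.9 and 37.2 TPM in MOCK and 53.7, 64.7 and 47.1 TPM in Rec. The A549 Rec values were the higher in each same-numbered pair, and the groups overlapped. The log2 difference was 0.24 ± 0.18 (SE), with an unadjusted p of 0.213 in limma, 0.0388 with the replicate number as a block and 0.0412 after rescaling (adjusted p 0.9997, 0.998 and 0.9995). The difference was 0.088 without A549 MOCK replicate 3, 0.12 without A549 Rec replicate 2 and up to 0.35 when another library was left out. Rescaled, the values were 60.1, 60.4 and 56.8 in MOCK and 64.9, 74.7 and 64.5 in Rec, which do not overlap. The share of S100P in the S100 level was 1.25, 1.28 and 1.27% for A549 MOCK against 1.30, 1.52 and 1.35% for A549 Rec. It was the 1 share of the 32 described whose groups did not overlap. No figure over all genes tested can be set beside this count, and shares within a family depend on one another. With 3 libraries against 3, an exact two-sided permutation test cannot go under p = 0.1 for a share.

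After rescaling, the groups of 5 genes did not overlap. PPP3CA and S100P were higher in A549 Rec, beside 2.77% of all genes tested. PPP3CA was at 45.4, 47.3 and 51.0 in MOCK and 51.1, 52.1 and 53.2 in Rec on this scale, where the lowest Rec library lay just above the highest MOCK library. ITPR2, TRPM7 and TRPC1 were lower, beside 3.84%. Rescaled, ITPR2 was at 6.59, 6.66 and 7.32 in MOCK and 6.11, 5.75 and 6.25 in Rec. TRPM7 was at 35.6, 35.1 and 41.4 in MOCK and 33.7, 31.9 and 34.3 in Rec on that scale. The smallest adjusted p of the 39 was 0.9995 after rescaling in limma. In same-numbered pairs, 7 of 39 genes (17.9%) were higher in A549 Rec in all 3 pairs, beside 13.1% of all genes tested, and 4 (10.3%) were lower in all 3, beside 9.66%. Rescaled, 4 were higher in all 3 pairs (10.7% of all genes) and 8 lower (15.4%). MCU, PPP3CA, S100A10 and S100P made up the first of these, and ATP2A2, ATP2C1, CALM2, CAMK1D, ITPR2, MICU3, TRPC1 and TRPM7 the second.

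**Figure D4:**
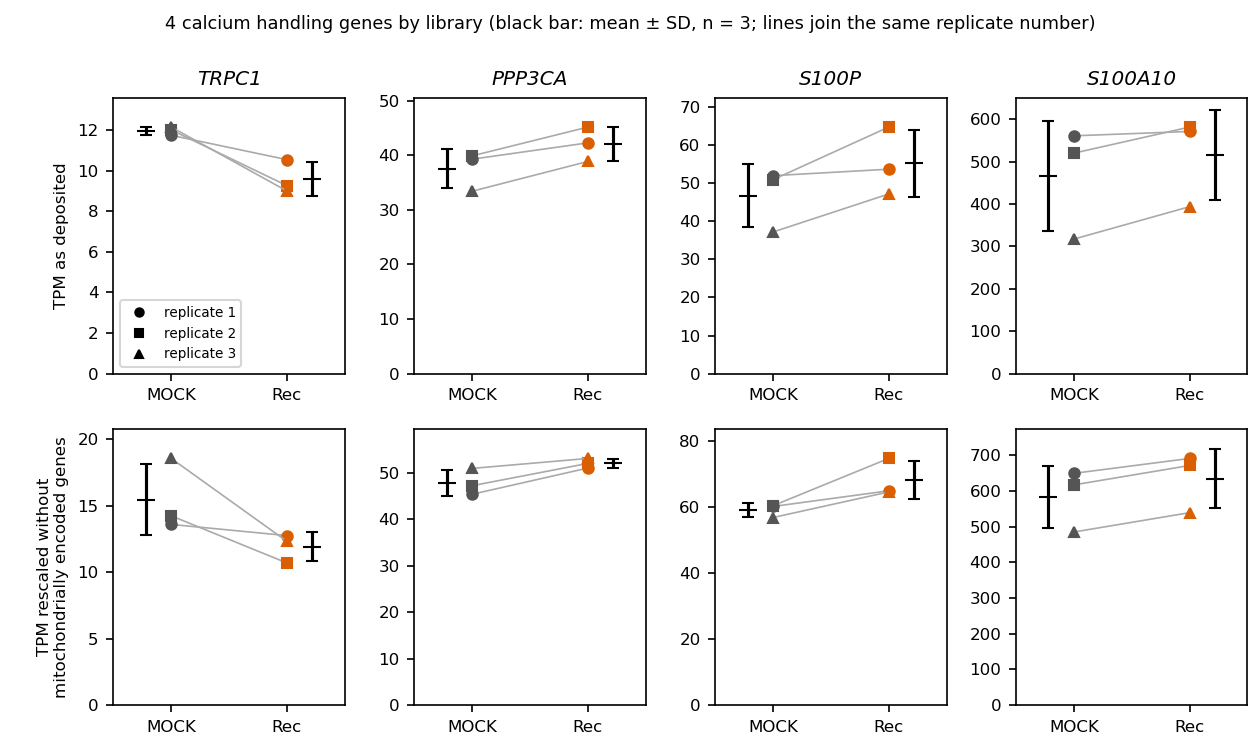
Level of TRPC1, PPP3CA, S100P and S100A10 in each library, as TPM (upper row) and after rescaling without mitochondrially encoded genes (lower row), with lines between the same replicate numbers and black bars for the mean ± SD (n = 3). TRPC1 is lower in A549 Rec in every pair on both scales, and replicate 3 of S100A10 lies below the other libraries in both groups.

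With the replicate number as a block, 2 of the 39 genes had an unadjusted p under 0.05, TRPC1 and S100P, beside 4.11% of all genes tested. After rescaling alone there was 1, S100P, beside 2.48%. With the block and rescaling together there were 3, TRPC1, S100P and S100A10, beside 5.0%. The count was 2 with quantile normalization (2.59% of all genes) and 2 with a median-ratio rescaling (2.52%). For voom with the block it was 5, with PPP3CA and TRPM7 beside these 3 (4.49% of all genes), and 4 when mitochondrially encoded reads were also left out (4.79%). S100A10 stood at 561, 520.1 and 317 TPM in MOCK and 571, 582 and 394 TPM in Rec. Replicate 3 was the low library in each group. Its log2 difference was 0.17 ± 0.27 (SE) in limma without the block, with an unadjusted p of 0.551. With the block and rescaling the difference was 0.12, with an unadjusted p of 0.0215 and an adjusted p of 0.933 in limma. No gene of the 39 was called under these settings either.

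Replicate 3 was the library with the largest mitochondrially encoded share in each group. As TPM, 28 of 39 genes were lower in replicate 3 than the mean of replicates 1 and 2 in both groups. The median deviation on the log2 scale was -0.30 for A549 MOCK and -0.15 for A549 Rec, beside -0.24 and -0.15 over all genes tested. After rescaling, 12 were lower and 21 higher in both groups, and the medians were 0.073 and 0.056 beside 0.10 and 0.043. Some genes kept a deviation of like size in both groups after rescaling. CAMK1D deviated by -0.45 and -0.39 (log2, A549 MOCK and A549 Rec), and S100A10 by -0.38 and -0.34. STIM2 deviated upwards, by 0.45 and 0.30, as did MICU3, by 0.44 and 0.29. S100A2 was at 0.71 in A549 MOCK and at -0.038 in A549 Rec. These genes were picked from their deviations, and the part of RNA quality or culture in them was not tested.

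**Figure D5:**
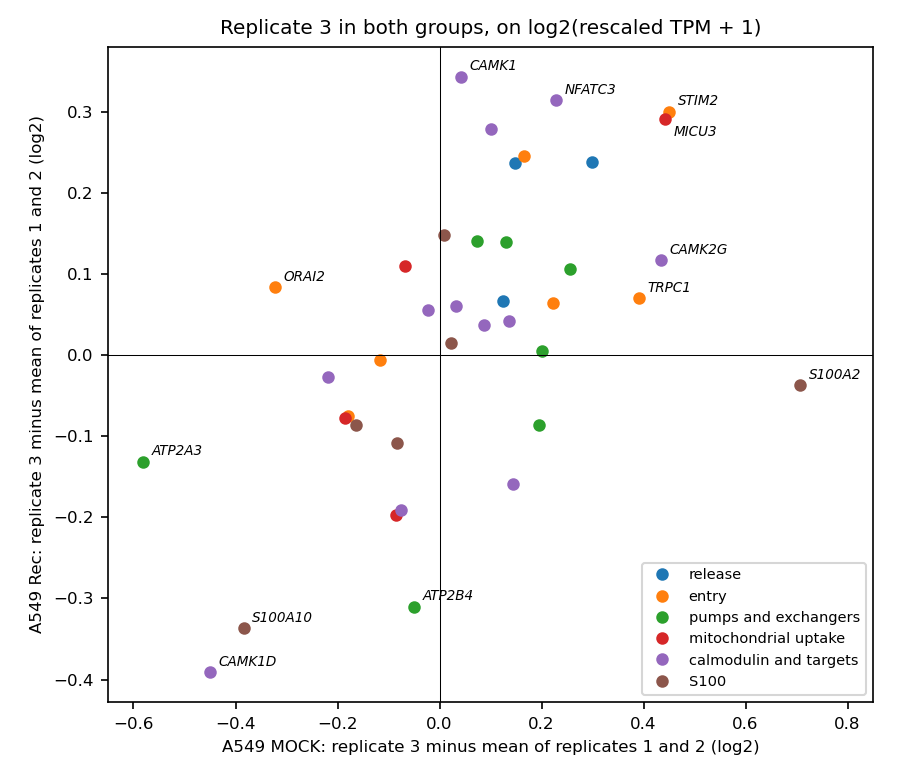
Deviation of replicate 3 from the mean of replicates 1 and 2, on log2(rescaled TPM + 1), in A549 MOCK (x axis) and in A549 Rec (y axis) for the 39 tested genes, coloured by role. CAMK1D and S100A10 lie at the lower left and STIM2 and MICU3 at the upper right, so they deviate the same way in both groups.

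The rest of the pathway was read from a list of 106 further genes, of channels, store chaperones, annexins, phospholipases C and modulators of the genes above, of which 80 were tested. At an unadjusted p under 0.05, 0 of the 80 passed in limma, beside 2.06% of all genes tested, and 0 passed with the block, after rescaling or with voom. The median log2 difference was 0.029, and 77 of 80 intervals lay inside a 2-fold change. With the block and rescaling together 4 passed, which is 5.0% beside 5.0% of all genes. CIB1, a calcium- and integrin-binding protein, had a log2 difference of 0.13 under that setting, with 199, 205 and 138 TPM in MOCK and 207, 223 and 175 TPM in Rec before rescaling. NFAT5, an NFAT relative that calcineurin does not control, had -0.15, PIEZO1, a mechanically gated channel, -0.14 and EFHD2, an EF-hand protein, -0.11. No adjusted p was under 0.05 for any of the 80.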

How the data were processed

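RNA from 3 A549 MOCK and 3 A549 Rec libraries was sequenced as pairs of 150 bases after a directional library preparation. The authors trimmed the reads with Trimmomatic 0.38 after FastQC 0.11.7, mapped them with HISAT2 2.1.0 to GRCh38, counted them per gene with featureCounts 1.6.3 and deposited the values as TPM. The submitters' processing notes also name a mouse build, which goes against the human gene identifiers of the table. The annotation release, the strand setting and the handling of reads with several matches are not given in the sources used here, so reads of a gene and of one that overlaps it may not be separated. A 0 in every library can be a gap of the counting as well as an absent RNA.

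From the TPM, log2(TPM + 1) was tested with limma 3.58.1 (R 4.3.3; lmFit, then eBayes with a mean trend) over the 17408 genes that reached 1 TPM in 3 or more libraries, with Benjamini-Hochberg adjustment over all of them and no block. A fold change on this scale understates that of low genes. A DEG had an adjusted p under 0.05 and a change of at least 2-fold. The test was tested on simulated data with 3-fold changes, where 142 of 193 changed genes and 2 others were called among 17032. Noise was drawn separately for each gene there. The simulation thus holds no shift shared by many genes, such as that of replicate 3, and no smaller changes.

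Whole reads were recovered from the TPM steps for 29900 of 29900 detected genes, taking values within 0.01 of a whole number. The gene lengths were chosen to make values whole, so this does not test the recovery. The GENCODE v44 exon length was met for 14535 genes, and in a simulation with known reads 99.1% of 28572 genes had them recovered exactly. Counts of 3 reads or fewer were taken as the floor, for counting error only, since copies made by PCR were not told apart. Voom used these reads. Shares in a family are of the summed TPM of its listed genes. Canonical transcripts are those of GENCODE v44, and all coordinates are GRCh38.

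Replicate numbers come from the labels. Deviations from the group means of same-numbered libraries correlated at 0.115, 0.164 and 0.342 across genes, all above 0.1. Differently numbered libraries were not correlated, and both replicate 3 libraries had the largest mitochondrially encoded share of their group. These values therefore cannot show that the numbers pair the libraries. The blocked fit is given as an alternative where it changes a count. Values in every library are given for the leading gene of each role and family and for genes with an unadjusted p under 0.05 or with groups that do not overlap. Genes under 1 TPM are given by their range. The 48 genes, the roles, the families and the list of 106 were chosen with earlier results of these data known. For that list, 3 genes were matched by an older symbol. A few further genes are not reported here.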

Additional observations from a re-analysis of the deposited data

How the results depend on the processing

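The count of called genes among the 39 stayed at 0 under every alternative run, and the log2 differences of TRPC1, S100P, PPP3CA, STIM1, TRPM7 and ITPR2 kept their sign under all of theirs, though not their size. What moved was the number with an unadjusted p under 0.05 in limma, 1 as reported. It was 2 with quantile normalization, with a median-ratio rescaling and with the replicate block (2.59, 2.52 and 4.11% of all genes tested), 3 with the replicate block and rescaling together (5.0%), 5 for voom with the block (4.49%) and 4 for voom with the block and without mitochondrially encoded reads (4.79%). It ranged from 0 to 1 when each library was left out, and from 0 to 1 (chosen after seeing the data) when this was combined with rescaling, where it was 0 without A549 MOCK replicate 2, A549 Rec replicate 1 or A549 Rec replicate 2. Of the 80 further genes, 4 passed with the block and rescaling and 2 for voom with the block, against 0 as reported. The pairing by replicate number changed no other call.

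Differences close to 0 changed sign, and the cause was not tested. ITPR3 was at -0.021 with quantile normalization, -0.030 after rescaling with or without the block, -0.0040 by median ratio, -0.0056 for voom with the block and -0.0054 for voom. ATP2B1 was at -0.040, -0.041 (with or without the block), -0.015, -0.017 and -0.017 in that order. CAMK2G and CAMKK2 were both at -0.024 after rescaling with or without the block, CAMK2G at -0.00093 for voom with the block, and CAMKK2 at -0.0030 for voom with the block and -0.00066 for voom. Leaving out each library gave ranges of -0.065 to 0.24 for CALM3, -0.012 to 0.057 for ITPR3, -0.099 to 0.038 for ATP2A2, -0.037 to 0.044 for ATP2B1, -0.16 to 0.019 for ATP2C1, -0.067 to 0.19 for ORAI1, -0.028 to 0.21 for MCU, -0.0011 to 0.049 for CAMK2G, -0.11 to 0.11 for CAMKK2, -0.039 to 0.16 for S100A6 and -0.089 to 0.35 for S100A10. Without a change of sign they gave 0.0080 to 0.14 for STIM1 and 0.088 to 0.35 for S100P, both lowest without A549 MOCK replicate 3, 0.084 (without the same library) to 0.22 for PPP3CA, -0.16 to -0.067 for TRPM7 and -0.18 to -0.079 for ITPR2, both nearest to 0 without A549 MOCK replicate 1 or A549 Rec replicate 3, and -0.36 to -0.25 for TRPC1. The median over the 39 genes ranged from -0.062, without A549 MOCK replicate 3, to 0.099.

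With 3 libraries a group, a change inside the intervals could not be told from none. Genes under 1 TPM were not tested, and most of them rest on few reads, with more for SLC8A1. Order between genes depends on the length used.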
